A study of Mus musculus with 39 samples.

Results

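The response of wild-type mouse liver to perfluorooctanoic acid (PFOA) was set against its response to Wy14,643, gene by gene, to find which genes both compounds moved alike and which were moved by only 1 of them. The comparison used 15 of the 39 arrays of the series, chosen by group label: 4 arrays of mice given 3 mg/kg PFOA (ammonium salt), 4 of mice given deionised water alone (the 0 mg/kg PFOA group), 4 of mice given 50 mg/kg Wy14,643 and 3 of mice given 0.5% methylcellulose alone, the Wy14,643 vehicle. All were adult males of the 129SV background, dosed by gavage on 7 consecutive days, with no genetic change, and each array held liver RNA of a single animal, with RNA that passed an integrity score (RIN) of 8.5 or more. A response is the mean log2 signal of the treated arrays minus that of their own vehicle arrays, and the difference is the PFOA response minus the Wy14,643 response. The compounds had different doses and different vehicles, so the difference is between these treatment arms as given and not between equal doses. A further 16 arrays, of mice that lack the receptor PPARα (PPARα-null), were fitted apart. They were 4 each for 3 mg/kg PFOA, water, 50 mg/kg Wy14,643 and 0.5% methylcellulose. Other fits took the spread from the whole series, which also holds 1 mg/kg PFOA groups of both genotypes.

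PFOA is a perfluorinated analogue of a fatty acid, and Wy14,643 is a fibrate-like compound long used as an activator of the peroxisome proliferator-activated receptor alpha (PPARα). PPARα is a nuclear receptor that senses fatty acids in the hepatocyte, binds DNA as a pair with the retinoid X receptor and raises transcription of genes for fatty acid uptake, binding, peroxisomal and mitochondrial β-oxidation and ω-hydroxylation. In rodents its prolonged activation enlarges the liver and multiplies peroxisomes. The liver also holds CAR and PXR, receptors that raise genes for drug metabolism, and SREBP2, the factor that raises the genes of cholesterol synthesis.

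The data were 28806 probes with a value on each of the 15 arrays, of which 13124 carried the name of 1 gene, for 12635 genes. The values had the same distribution on every array, and signal on an array of this kind has no read depth, so the number of animals limits the precision. Correlation across probes was between 0.927 and 0.972 for the 21 pairs of arrays within a group, and between 0.921 and 0.967 for the 84 pairs between groups. The hepatocyte markers Alb and Ttr were high in both vehicles (mean log2 signal 20.6 and 20.8 with water, 20.8 and 20.7 with methylcellulose), as the tissue label says. Replicate 3 of the Wy14,643 group stood apart from the other three arrays of its group. Among the 104 probes called for both compounds with sizes not resolved (defined below), it lay furthest in the direction of the response in 85.6%, and among the 283 probes called for PFOA and not for Wy14,643 in 70.7%, against 11.3%, 13.4% and 4.59% for the other Wy14,643 arrays. The share was lower, at 66%, among the 50 probes moved alike, and 45.9% among the 205 called for Wy14,643 and not for PFOA. These classes were defined with this array included, so the shares depend in part on it. Without it, 35 of the 50 probes moved alike (defined below) stayed called for both compounds, as did 70 of those 104, and values without it are given for the named genes that lost a call and for the gene lists whose counts moved most. Leaving it out also leaves 3 arrays in the group. The 39 arrays also fell into 2 unlabelled sets by 73 probes, with 16 arrays in the smaller and 23 in the larger. The PFOA and water groups had 2 arrays in each set, methylcellulose 1 and 2, and all 4 Wy14,643 arrays lay in the larger set.

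The promoters of 3 genes are shown as examples of the classes by which genes are described below, although no difference between the compounds passed its test. They are the 250 bases before the RefSeq start of transcription in build GRCm38.p6, read 5′ to 3′ on the strand of the gene. Cd36, the fatty acid transporter that both compounds raised alike, lies on the minus strand (chr5:17835897-17836146). Hmgcs1, the cytosolic synthase of the cholesterol pathway, called for Wy14,643 and not for PFOA, lies on the plus strand (chr13:119690101-119690350). Cyp2c55, a cytochrome P450 gene known as a target of CAR and PXR and called for PFOA and not for Wy14,643, lies on the plus strand (chr19:39006769-39007018). Capitals mark AGGTCA or its complement TGACCT, the hexamer that PPARα, CAR and PXR recognise, and in Hmgcs1 also CACCCCAC, a form of the sterol response element.
Cd36: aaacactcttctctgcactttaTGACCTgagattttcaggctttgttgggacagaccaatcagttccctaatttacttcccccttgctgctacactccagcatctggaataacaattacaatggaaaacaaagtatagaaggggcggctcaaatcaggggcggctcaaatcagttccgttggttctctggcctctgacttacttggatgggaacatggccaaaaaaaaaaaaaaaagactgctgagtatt
Hmgcs1: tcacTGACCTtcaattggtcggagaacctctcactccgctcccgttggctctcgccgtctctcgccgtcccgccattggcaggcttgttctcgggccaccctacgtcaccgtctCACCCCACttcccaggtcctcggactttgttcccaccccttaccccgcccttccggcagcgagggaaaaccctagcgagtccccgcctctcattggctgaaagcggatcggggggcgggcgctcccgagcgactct
Cyp2c55: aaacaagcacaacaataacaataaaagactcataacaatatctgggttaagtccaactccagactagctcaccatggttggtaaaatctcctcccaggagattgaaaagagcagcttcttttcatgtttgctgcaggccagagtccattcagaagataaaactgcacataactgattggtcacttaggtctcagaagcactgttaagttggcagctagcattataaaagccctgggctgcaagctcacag
The hexamer stood 228 bases before the start in Cd36 and 246 bases before it in Hmgcs1, and CACCCCAC stood 136 bases before it in Hmgcs1. The Cyp2c55 window held no hexamer, but that of Plin2, of the same class as Cyp2c55, held TGACCT 218 bases before its start, and that of Ehhadh, called for both compounds, held none. Over all 27025 genes with a promoter in the table, 13.8% held the hexamer on either strand and 2.51% held CACCCCAC on either strand. The hexamer was in 4 of 30 promoters of the genes moved alike (13.3%), in 5 of 53 of those called for both with sizes not resolved (9.43%), in 19 of 142 of those called for PFOA and not Wy14,643 (13.4%) and in 17 of 88 of those called for Wy14,643 and not PFOA (19.3%), all without a test. A match is a string of letters and not a bound site.

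PFOA and Wy14,643 moved many of the same genes in the same direction, and no gene passed the test of a difference between its responses. A probe is called where its limma p, adjusted over all probes by the Benjamini-Hochberg method, is under 0.05. PFOA called 437 probes (1.52% of those tested), 338 higher and 99 lower than with water. Wy14,643 called 359 probes (1.25%), 237 higher and 122 lower than with methylcellulose. The 2 comparisons share no array, but they come from the same fit and share its estimate of each probe's spread. A probe with a small spread is more easily called for both, so the calls are not independent. The PFOA count thus also changed when an array outside its own comparison was left out, as given below for Wy14,643 replicate 3. Both called 154 probes in the same direction (0.535% of all probes), which is 35.2% of the PFOA list and 42.9% of the Wy14,643 list, and they called none in opposite directions. Single arrays set these counts to a fair degree. PFOA called 243, 256 and 246 probes without water replicates 2, 3 and 4, 269, 260 and 277 without PFOA replicates 2, 3 and 4, and 697 without Wy14,643 replicate 3. Wy14,643 called 155, 135 and 128 without methylcellulose replicates 1, 2 and 3, and 641, 181, 186 and 232 without its own replicates 1, 2, 3 and 4. The shared calls were 84, 79 and 84 without the 3 methylcellulose arrays in turn, and calls in opposite directions were 2 without PFOA replicate 1 and 1 without water replicate 1.

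Sign went together far beyond the called overlap. Of the 437 probes called for PFOA, 414 had a Wy14,643 response of the same sign (94.7%), and of the 359 called for Wy14,643, 334 had a PFOA response of the same sign (93%), against 54.9% of all probes. Across the 642 probes called for either compound, the 2 responses correlated at r = 0.788, and across all probes at 0.238. These are correlations across genes of the same livers, and genes are not independent replicates.

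The difference between the responses passed at adjusted p under 0.05 for 0 of 28806 probes by limma (0%), with a smallest adjusted p of 0.23. It passed for 3 probes without Wy14,643 replicate 3 (Slco1a4, Cbfa2t3 and an unnamed probe), for 1 without Wy14,643 replicate 1 (Fabp4), for 1 unnamed probe without water replicate 1 and for 2 without PFOA replicate 1. Where the spread was estimated from all 39 arrays, or from 38 of them, it passed for 3 probes (Cyp2c55, Fabp4 and an unnamed probe). At an unadjusted p under 0.05 there were 2716 probes (9.43%), of which 1148 had the higher PFOA response and 1568 the higher Wy14,643 response. Of 583 probes for olfactory, vomeronasal, taste and keratin-associated genes, which liver is not known to use, 13.9% were under the same unadjusted p, with a median difference of -0.33. Their mean signal was 8.82 with PFOA, 8.99 with water, 8.92 with Wy14,643 and 8.76 with methylcellulose. With this mean of each array (the silent-gene index) as a covariate, the difference again passed for 0 probes. The Acot3 difference went from 3.71 to 2.69 and that of Cyp2b10 from 1.74 to 3.86. Its part as a cause of the differences was not tested. A p that misses the threshold does not show that the compounds act alike. The 95% interval of the difference was therefore used, and at the median it reached 1.18 to either side on the log2 scale over all probes and 0.89 over the probes called for either compound.

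**Figure D1:**
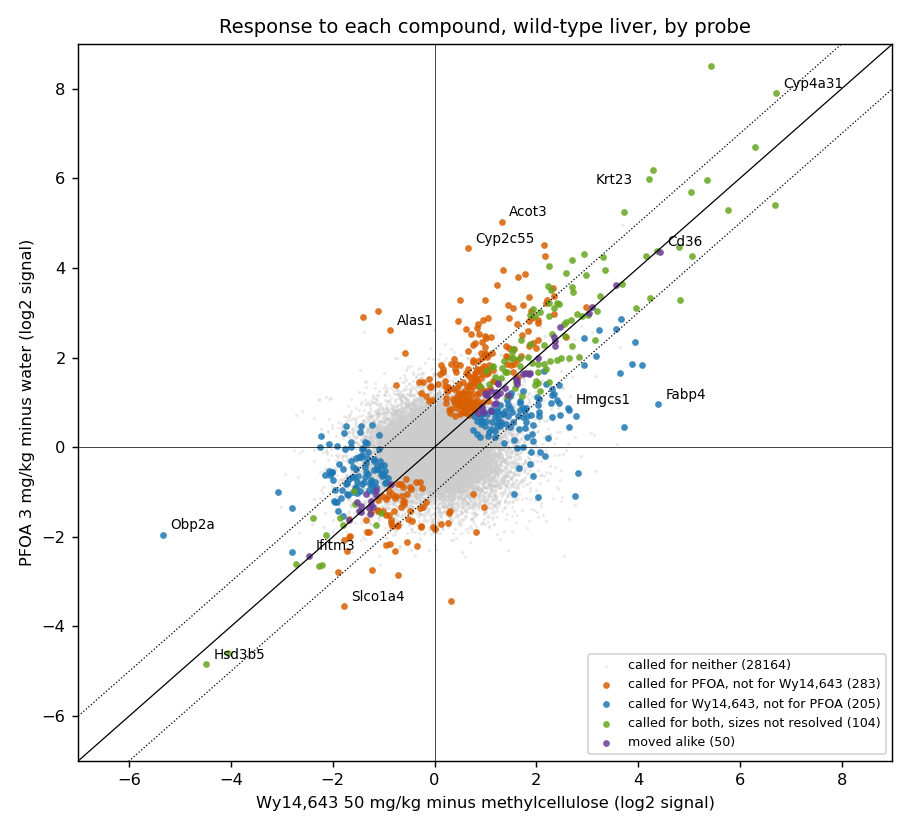
Each point is a probe, with its Wy14,643 response on the x axis and its PFOA response on the y axis, both in log2 units. The solid line marks equal responses and the dotted lines a difference of 1, and most of the 642 coloured probes lie along the solid line in the upper right and lower left.

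A probe is described as moved alike where both compounds called it in the same direction and the 95% interval of the difference lay within 1 log2 unit of 0, which is a 2-fold margin. This held for 50 probes, 35 higher and 15 lower, with 35 named genes. Another 104 probes were called for both with an interval that reached past the margin, 91 higher and 13 lower. The remaining 283 and 205 probes were called for PFOA and not for Wy14,643, or the reverse. No probe met the stricter rule of being called for 1 compound with a called difference. Only 118 of the 642 probes called for either compound (18.4%) had an interval within the margin, so for most of them likeness was not resolved in either way.

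Cd36 and Pltp had the largest rises among the named genes moved alike. Cd36, the fatty acid transporter, was at 17.3, 16.3, 16.9 and 16.9 with PFOA against 12.5, 12.4, 12.7 and 12.4 with water, and at 17.1, 17.2, 17.8 and 17.2 with Wy14,643 against 12.6, 13.2 and 12.9 with methylcellulose. Every treated array lay above every vehicle array. The rise was 4.36 ± 0.23 (SE) with PFOA, which is 20.6-fold, and 4.43 ± 0.25 with Wy14,643, which is 21.6-fold (limma, adjusted p = 3.97e-07 and 8.99e-07). The difference was -0.07, with a 95% interval from -0.81 to 0.68. Pltp, which moves phospholipid between lipoproteins, gave 15.2, 15.5, 15.8 and 15.9 with PFOA and 15.2, 15.8, 16.1 and 15.5 with Wy14,643, where the 7 vehicle arrays lay between 11.6 and 12.4. It rose by 3.61 and 3.57, with a difference of 0.05 (-0.72 to 0.82).

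Other lipid enzymes rose to like extents. Retsat, which saturates retinol, rose by 2.38 with PFOA and 2.37 with Wy14,643 (difference 0.01, -0.85 to 0.87). Me1, malic enzyme, which supplies NADPH for fatty acid synthesis, rose by 2.26 and 2.37 (-0.11, -0.92 to 0.70). Fabp2, a fatty acid-binding protein best known from the intestine, rose by 1.64 and 1.85 (-0.21, -0.88 to 0.46). Acadl, the long-chain acyl-CoA dehydrogenase, rose by 1.51 and 1.61 (-0.09, -0.81 to 0.62). The peroxisomal thiolase Acaa1b rose by 1.43 and 1.24 (0.19, -0.35 to 0.73). The desaturase Fads2 rose by 1.33 and 1.39 (-0.06, -0.61 to 0.48), and Hadhb, a subunit of the mitochondrial trifunctional protein, by 1.42 and 1.24 (0.18, -0.39 to 0.76). All of these passed the test for both compounds, also without Wy14,643 replicate 3.

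Other named genes also moved alike. Ctse, the protease cathepsin E, rose by 3.12 with PFOA and 3.10 with Wy14,643 (difference 0.03, -0.85 to 0.91). Car2, carbonic anhydrase 2, gave 12.1, 12.5, 13 and 12.1 with PFOA, 12.5, 12.8, 13.3 and 12.5 with Wy14,643 and 9.6 to 10.5 on the vehicle arrays, a rise of 2.46 and 2.35. Acyp2, an acylphosphatase, rose by 2.0 and 2.04 (-0.04, -0.75 to 0.66), and Ephx2, the soluble epoxide hydrolase, by 1.23 and 1.21 (0.02, -0.68 to 0.71).

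Ifitm3 had the largest fall among the named genes moved alike. Ifitm3, an interferon-inducible membrane protein that restricts virus entry, was at 16.2, 16.6, 16.3 and 16.4 with PFOA and 16.5, 16.4, 15.9 and 15.8 with Wy14,643, and between 18.4 and 18.9 on the vehicle arrays. It fell by 2.43 with PFOA and by 2.47 with Wy14,643 (adjusted p = 2.83e-05 and 8.73e-05), with a difference of 0.05 (-0.59 to 0.69). Its relative Ifitm1 fell by 1.62 and by 1.68 (0.06, -0.53 to 0.65). Of 25 measured interferon-inducible genes, PFOA and Wy14,643 each called 2 lower and 1 higher, and these were the same 3 genes: Ifitm3, Ifitm1 and Ifi27l2b. Over all named genes, PFOA called 1.62% higher and 0.451% lower, and Wy14,643 1.15% higher and 0.443% lower. The complement factor Cfb fell by 0.82 and by 0.86, the lipoprotein component Apom by 1.04 and by 1.35, the plasma phospholipase Gpld1 by 1.36 and by 1.29, Serpina11, a serpin, by 1.32 and by 1.45, and Ppp1r14a, an inhibitor of myosin phosphatase, by 1.44 with each. The Wy14,643 call was lost in 19 of 26 other settings for Ppp1r14a, in 18 for Gpld1 and in 15 for Cfb. The mean signals of Kupffer cell and hepatocyte markers were lower beside these genes, though of these markers only Clec4f was called, with Wy14,643. Not every cell type did the same, and the mean of 12 endothelial markers was 12.68 with PFOA against 12.61 with water. With Wy14,643 that mean was 12.5 against 12.8 with methylcellulose. The mean log2 signal of 11 Kupffer cell markers was 12.35 to 12.77 with PFOA against 12.83 to 13.04 with water, and 12.5 to 12.8 with Wy14,643 against 13.1 to 13.3 with methylcellulose. That of 6 hepatocyte markers was 19.7 to 20.04 with PFOA against 20.3 to 20.5 with water, and 19.7 to 20.4 with Wy14,643 against 20.2 to 20.6 with methylcellulose. Their part in the falls was not tested. In whole liver, a change in the number of cells of a type and a change of RNA per cell cannot be told apart.

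Without replicate 3 of the Wy14,643 group, 31 of the 50 probes still met the rule for likeness. Of the genes named above, Ppp1r14a (adjusted p = 0.073), Ephx2 (0.071) and Cfb (0.094) lost the Wy14,643 call, and the interval of the difference reached past the margin for Ctse (to 1.06), Car2 (to 1.06) and Ppp1r14a (to -1.03). Every direction stayed as given. The count of probes moved alike was 33 without water replicate 1, 28 without water replicate 2, 30 without water replicate 4, 30 without PFOA replicate 3 or replicate 4, 32 without Wy14,643 replicate 2, and 23, 16 and 19 without methylcellulose replicates 1, 2 and 3.

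**Figure D2:**
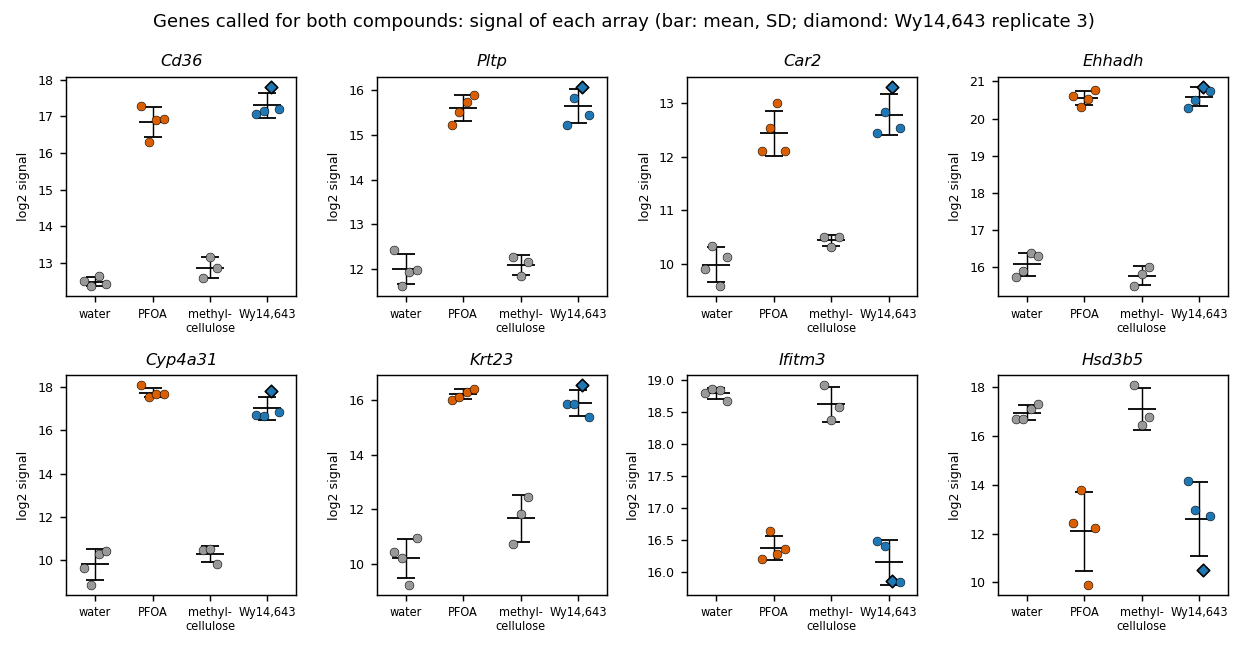
Log2 signal of each array for 8 genes called for both compounds. Points are arrays, the horizontal bar is the group mean and the whiskers are 1 SD, and the treated arrays of each gene lie apart from their vehicle arrays in the same direction for both compounds.

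The largest rises were shared, but their sizes were not resolved. Cyp4a31, a fatty acid ω-hydroxylase, was at 18.1, 17.5, 17.7 and 17.6 with PFOA against 9.6, 8.9, 10.3 and 10.4 with water, and at 16.7, 16.7, 17.8 and 16.8 with Wy14,643 against 10.5, 10.5 and 9.9 with methylcellulose. It rose by 7.91 ± 0.35 (SE) with PFOA and by 6.71 ± 0.37 with Wy14,643 (adjusted p = 7.81e-08 and 8.99e-07). The difference was 1.2 (0.10 to 2.30, adjusted p = 0.52). Cyp4a14, of the same family, was between 20.4 and 20.5 on the PFOA arrays and between 20.1 and 20.6 on the Wy14,643 arrays, while the vehicle arrays ran from 11.7 to 15.7. Its rises of 6.69 and 6.29 differed by 0.40, with an interval from -2.16 to 2.96. The Cyp4a genes are close copies of each other, and a probe for 1 of them may take signal from another.

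Ehhadh, the peroxisomal bifunctional enzyme of β-oxidation, just missed the rule for likeness. It was at 20.6, 20.3, 20.5 and 20.8 with PFOA and 20.3, 20.5, 20.8 and 20.7 with Wy14,643, and between 15.5 and 16.4 on the vehicle arrays. The rises were 4.47 ± 0.21 (SE) and 4.81 ± 0.23, and the interval of the difference ran from -1.0 to 0.32. Ech1, another enzyme of the pathway, rose by 2.39 and 1.71 (difference 0.68, 0.00 to 1.35). Hes7, a transcriptional repressor, rose by 5.69 and 5.04, Mogat1, which makes diacylglycerol, by 5.96 and 5.36, Amn, a membrane protein of vitamin B12 uptake, by 5.29 and 5.77, and Serinc2 by 4.38 with each. Ston1, an endocytic adaptor, rose by 5.40 and 6.69.

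Krt23 and Vnn1 had the higher response with PFOA, with an interval that did not reach 0 but an adjusted p that missed the threshold. Krt23, a keratin, was at 16.01, 16.1, 16.3 and 16.4 with PFOA against 10.4, 10.2, 9.2 and 10.9 with water, and at 15.9, 15.8, 16.5 and 15.4 with Wy14,643 against 10.7, 11.8 and 12.5 with methylcellulose. Treated arrays overlapped between the compounds, and the water arrays lay lower than most methylcellulose arrays. Its rises were 6.0 and 4.22, with a difference of 1.77 (0.52 to 3.02, adjusted p = 0.52). Krt23 was counted among the 6 measured cholangiocyte markers, of which the defining Krt19 and Epcam were not called for either compound (Krt19 0.01 with PFOA and 0.73 with Wy14,643, Epcam -0.61 and -0.34). Vnn1, the pantetheinase vanin 1, rose by 5.25 and 3.72 (difference 1.53, 0.39 to 2.67). The interval of Acot1, a cytosolic acyl-CoA thioesterase, held 0, with rises of 6.19 and 4.29 (1.90, -0.16 to 3.97), with Wy14,643 arrays at 16.8, 17.9, 20.3 and 17.0 and PFOA arrays between 18.9 and 19.2. Without Wy14,643 replicate 3 the Vnn1 difference was 1.97 (1.22 to 2.71, adjusted p = 0.11) and that of Acot1 was 2.66 (1.23 to 4.10, adjusted p = 0.35).

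The shared falls of unresolved size were led by the Hsd3b family of steroid dehydrogenases. Hsd3b5, a male-biased liver enzyme, was at 12.4, 13.8, 9.9 and 12.2 with PFOA and 14.2, 12.9, 10.5 and 12.7 with Wy14,643, against 16.4 to 18.1 on the vehicle arrays. It fell by 4.85 and by 4.49 (adjusted p = 0.0058 and 0.020), with a difference of -0.36 (-2.85 to 2.12). Hsd3b4 fell by 4.58 and by 4.07, and Hsd3b2 by 2.66 and by 2.26. These 3 of the 5 measured members fell with both compounds, and Hsd3b6 (0.15 and 0.32) and Hsd3b7 (-0.05 and 0.46) were not called. Of all named genes, 0.451% were called lower with PFOA and 0.443% with Wy14,643. Without Wy14,643 replicate 3 the Wy14,643 call of Hsd3b4 was lost (-3.52, adjusted p = 0.078), that of Hsd3b5 remained (-3.80, adjusted p = 0.047), and the Hsd3b5 difference was -1.06 (-3.25 to 1.15). The family is closely similar in sequence, so probes may share signal. C8b, a chain of complement component 8, fell by 1.58 and by 2.39 (difference 0.81, 0.01 to 1.61).

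Among the 283 probes called for PFOA and not for Wy14,643, Alas1 had the smallest unadjusted p of the difference among named genes. Alas1, which catalyses the first step of haem synthesis, was at 18.4, 18.3, 17.3 and 17.4 with PFOA against 15.4, 15.99, 14.5 and 15.1 with water, and at 15.8, 15.7, 16.6 and 15.3 with Wy14,643 against 16.2, 16.6 and 17.4 with methylcellulose. The PFOA arrays lay above every water array, and the Wy14,643 arrays overlapped those with methylcellulose. The methylcellulose arrays also lay above those with water. Alas1 rose by 2.61 ± 0.39 (SE) with PFOA (adjusted p = 0.0033) and had a Wy14,643 value of -0.88 ± 0.42 (adjusted p = 0.34). The difference was 3.5 (2.26 to 4.74), with an unadjusted p of 3.20e-05 and an adjusted p of 0.23, equal to the smallest reached.

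Cyp2c55 was at 14.9, 14.8, 15.1 and 14.9 with PFOA against 10.5, 9.5, 10.7 and 11.2 with water, and at 12.3, 11.6, 10.4 and 11.9 with Wy14,643 against 10.3, 11.99 and 10.5 with methylcellulose. It rose by 4.44 ± 0.46 (SE) with PFOA, which is 21.7-fold (adjusted p = 0.00019), and had a Wy14,643 value of 0.66 ± 0.50 (adjusted p = 0.56). Its difference of 3.78 (2.33 to 5.24) had an adjusted p of 0.24 and passed the test only where the spread was estimated from all 39 arrays (0.027) or 38 of them (0.0013). Cyp2c genes are close copies, so the probe may share signal with others. Cyp2b10, the gene most used as a mark of CAR activity, had 2.13 with PFOA (adjusted p = 0.18) and 0.39 with Wy14,643 (0.85), neither called. Its PFOA arrays were at 15.6, 13.5, 14.3 and 14.4, above every water array (10.3 to 13.1). Nr1i3, which encodes CAR itself, had 0.25 and -0.22, and Ppara 0.41 and -0.07, with none of the 4 values called.

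Of 31 measured genes of CAR- and PXR-linked metabolism, PFOA called 3 higher (Alas1, Cyp2c55 and Gadd45b) and 1 lower (Slco1a4), and Wy14,643 called none by limma (9 at an unadjusted p under 0.05 with each compound). With the spread of 39 arrays PFOA called 6 higher and 2 lower and Wy14,643 3 higher and 4 lower. In the fit of the 15 arrays, the shares over all named genes were 1.62% higher and 0.451% lower with PFOA, and 1.15% higher and 0.443% lower with Wy14,643. At an unadjusted limma p under 0.05, 1977 of 12635 named genes passed with PFOA and 2202 with Wy14,643. With the spread of 39 arrays, 528 of 11583 were called higher and 321 lower with PFOA, and 414 and 457 with Wy14,643. The list's median difference was 0.42, against 0.08 over all named genes. Slco1a4, a bile acid and drug transporter, was at 12.6, 12.1, 12.8 and 12.7 with PFOA against 15.8 to 16.3 with water, and fell by 3.54 ± 0.81 (SE, adjusted p = 0.047), a call lost in 18 of 26 other settings. With Wy14,643 it was at 15.3, 14.7, 10.4 and 15.4, so replicate 3 alone lay below the PFOA arrays, and the methylcellulose arrays were at 15.3, 16.1 and 15.9. Its difference was -1.76 (-4.32 to 0.81, adjusted p = 0.65), and without Wy14,643 replicate 3 it was -2.93 (-3.73 to -2.13, adjusted p = 0.031), past the threshold.

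Peroxisome and lipid droplet genes in this class shared that array pattern. Pex11a, which drives peroxisome division, was at 17.6, 18.1, 18.2 and 18.1 with PFOA against 14.99 to 15.7 with water, a rise of 2.75 ± 0.50 (SE). With Wy14,643 it was at 15.9, 16.5, 18.8 and 15.9 against 15.5, 16.1 and 16.1 with methylcellulose, a value of 0.85 that was not called. The difference was 1.90 (0.32 to 3.48, adjusted p = 0.52) and, without Wy14,643 replicate 3, 2.57 (1.77 to 3.36, adjusted p = 0.062). Plin2, the coat protein of lipid droplets, rose by 2.75 with PFOA and had 1.62 with Wy14,643 (adjusted p = 0.10), with Wy14,643 arrays at 15.7, 16.4, 18.3 and 16.2. Gadd45b, a stress-response gene, rose by 3.80 with PFOA, with Wy14,643 arrays at 11.9, 11.7, 15.4 and 11.4 and PFOA arrays from 13.7 to 15.4, and its PFOA call was lost in 10 of 26 other settings. Fgf21, the fasting hormone, rose by 2.89 with PFOA and had 1.47 with Wy14,643 (adjusted p = 0.30). Pdk4, the kinase that shuts pyruvate dehydrogenase in fasting, was called for neither (4.97, adjusted p = 0.072, and 3.69, adjusted p = 0.21), and its Wy14,643 arrays were at 12.1, 12.4, 19.5 and 14.3. Without Wy14,643 replicate 3 the Wy14,643 values were 0.18 for Pex11a, 1.07 for Plin2, 0.72 for Gadd45b, 0.81 for Fgf21 and 2.05 for Pdk4, none called, and the Pdk4 difference went from 1.28 to 2.92 (0.70 to 5.13, adjusted p = 0.46).

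Acot3, a peroxisomal thioesterase, was at 15.8, 15.6, 14.8 and 15.1 with PFOA against 8.8 to 11.3 with water, a rise of 5.04 ± 0.85 (SE, 32.8-fold), and at 13.5, 13.2, 15.7 and 10.9 with Wy14,643 against 10.3, 13 and 12.6 with methylcellulose. Its Wy14,643 value of 1.32 (0.54 without replicate 3) was not called (adjusted p = 0.52), and the difference was 3.71 (1.01 to 6.42). Over the class as a whole, the median response in the direction of the PFOA call was 1.52 with PFOA and 0.75 with Wy14,643, and 0.59 with Wy14,643 when its replicate 3 was left out. The class was chosen as called for PFOA and not called for Wy14,643. Both medians, and the gap between them, follow in part from that choice and are a description.

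**Figure D3:**
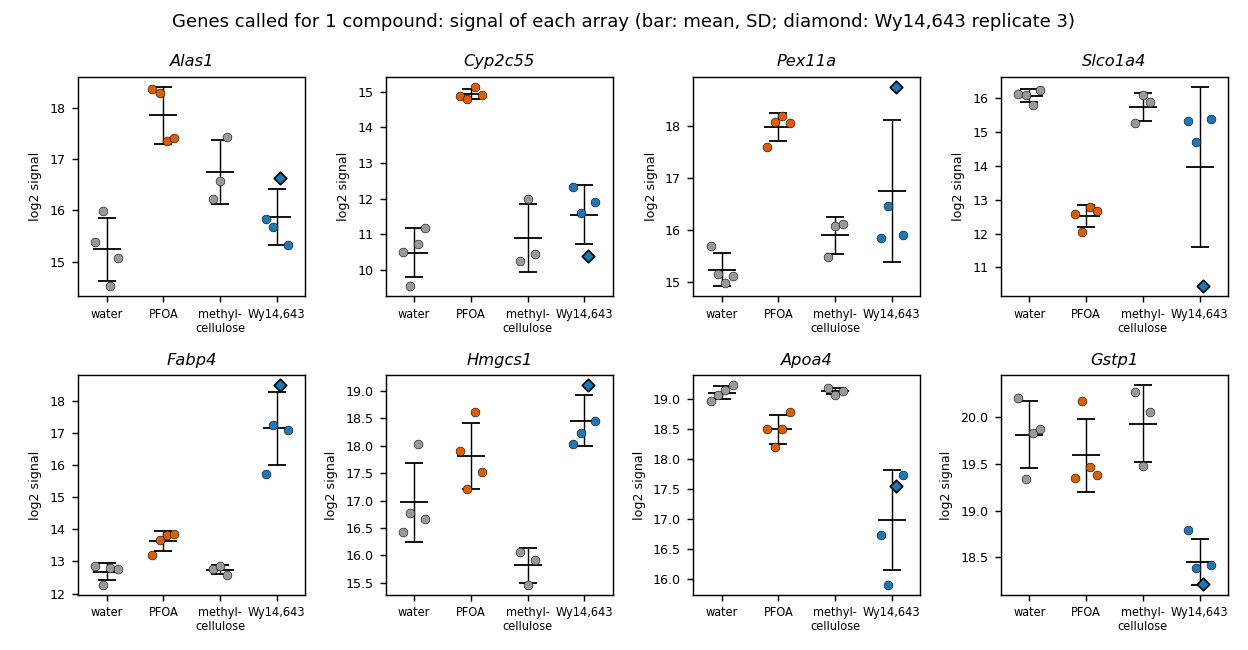
Log2 signal of each array for 4 genes called for PFOA and not Wy14,643 (top) and 4 called for Wy14,643 and not PFOA (bottom). Bars are group means with 1 SD and the diamond is Wy14,643 replicate 3, which for Slco1a4 and Pex11a lies with or beyond the PFOA arrays while the other three lie near methylcellulose.

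Among the 205 probes called for Wy14,643 and not for PFOA, Fabp4 had the smallest unadjusted p of the difference among named genes (7.25e-05). Fabp4, the fatty acid-binding protein of adipocytes and macrophages, was at 15.7, 17.3, 18.5 and 17.1 with Wy14,643 against 12.8, 12.9 and 12.6 with methylcellulose, and at 13.2, 13.7, 13.8 and 13.8 with PFOA against 12.9, 12.3, 12.8 and 12.8 with water. The PFOA arrays also lay above the water arrays. Fabp4 rose by 4.39 ± 0.45 (SE) with Wy14,643, which is 21.0-fold (adjusted p = 0.00032), and had 0.96 ± 0.42 with PFOA (adjusted p = 0.33). The difference was -3.44 (-4.76 to -2.11, adjusted p = 0.24). It passed the test with the spread of all 39 arrays (0.00014), with that of 38 (0.00024) and without Wy14,643 replicate 1 (-3.90, 0.027). The other measured adipocyte markers were not called with Wy14,643, with Plin1 at 0.46 and Lep at -0.76.

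Cholesterol synthesis had the lowest median difference of the gene lists other than cell markers, towards Wy14,643. Of 16 measured genes, Wy14,643 called 7 higher and PFOA none by limma (14 and 6 at an unadjusted p under 0.05), where 1.15% and 1.62% of all named genes were called higher. The counts were 4 and 0 without Wy14,643 replicate 3, and 9 and 1 with the spread of 39 arrays. Over all named genes, the counts of rises in those settings were 87 and 303 of 12635, and 414 and 528 of 11583. At an unadjusted limma p under 0.05, 2202 of 12635 named genes passed with Wy14,643 and 1977 with PFOA. In all, 15 had the larger Wy14,643 response, with a median of 1.2 against 0.39 with PFOA. The median difference of -0.89 compares with 0.08 over all named genes. Hmgcs1 was at 18.0, 18.2, 19.1 and 18.5 with Wy14,643 against 16.1, 15.5 and 15.9 with methylcellulose, and at 17.9, 17.2, 18.6 and 17.5 with PFOA against 16.4, 16.8, 18.0 and 16.7 with water. The levels of the treated groups overlapped, and the water arrays all lay above the methylcellulose arrays. It rose by 2.64 ± 0.41 (SE) with Wy14,643 (adjusted p = 0.0070) and had 0.84 ± 0.38 with PFOA (adjusted p = 0.35), a difference of -1.80 (-3.0 to -0.59, adjusted p = 0.52).

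The other members called for Wy14,643 were Mvd, which decarboxylates mevalonate pyrophosphate (2.06, against 0.69 with PFOA), Pmvk (1.69 and 1.03), Idi1 (1.64 and 0.69), Cyp51 (1.48 and 0.46), Fdft1, the squalene synthase (1.18 and 0.36), and Sc5d (1.05 and 0.25). None of their differences passed the test, and without Wy14,643 replicate 3 the Wy14,643 call was lost for Mvd (adjusted p = 0.055), Idi1 (0.054) and Fdft1 (0.078). Msmo1 and Insig1, called for neither compound, had differences of -1.89 and -1.22. Mvd was at 13.9, 13.6, 14.6 and 14.2 with Wy14,643, 12.6, 11.6 and 11.8 with methylcellulose, 13.7, 13.3, 14.4 and 13.3 with PFOA and 12.8, 12.6, 13.9 and 12.7 with water, so here too the vehicles differed more than the treated groups did. Of 17 measured clock genes, which follow the hour of the day, 5 had vehicle means more than 1 log2 unit apart and 7 had means within 0.2. Dbp had means of 15.5 with water and 17.8 with methylcellulose and Arntl of 11.04 and 8.81, and neither was called for a compound. The hour of collection is not given in the labels, and its part was not tested.

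Hao2, a peroxisomal hydroxyacid oxidase, rose by 4.07 with Wy14,643 and had 1.83 with PFOA (adjusted p = 0.12). Its PFOA arrays were at 9.5, 10.5, 12.2 and 11.8, from the level of the water arrays (8.1 to 9.7) to that of the Wy14,643 arrays (11.6 to 12.6). Mcm6, a subunit of the replicative helicase, rose by 2.78 with Wy14,643 and had 0.70 with PFOA. Without Wy14,643 replicate 3 its Wy14,643 call was lost (2.88, adjusted p = 0.066).

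Falls called for Wy14,643 and not for PFOA included Apoa4, Gstp1, Obp2a and Slco1a1. Apoa4, an apolipoprotein, was at 16.7, 15.9, 17.6 and 17.7 with Wy14,643 against 19.2, 19.1 and 19.1 with methylcellulose, and at 18.5, 18.2, 18.5 and 18.8 with PFOA against 19.0, 19.1, 19.2 and 19.2 with water. It fell by 2.15 ± 0.34 (SE) with Wy14,643 and had -0.61 ± 0.32 with PFOA, and the treated arrays of both compounds lay below their vehicles. The difference was 1.54 (0.53 to 2.55, adjusted p = 0.52). Gstp1, a glutathione transferase with male-biased liver expression, was at 18.8, 18.4, 18.2 and 18.4 with Wy14,643 and between 19.3 and 20.3 on all other arrays, a fall of 1.48 with Wy14,643 and a value of -0.22 with PFOA (difference 1.26, 0.44 to 2.08). Its Wy14,643 call was lost without replicate 3 (adjusted p = 0.063). Obp2a, a lipocalin, fell by 5.33 with Wy14,643 and had -1.95 with PFOA. Slco1a1, an organic anion transporter, fell by 2.79 with Wy14,643 and had -1.35 with PFOA, with a difference of 1.44 that was 0.95 (-0.04 to 1.94) without Wy14,643 replicate 3, where PFOA was called too (adjusted p = 0.033). Of 15 measured male-biased genes, Wy14,643 called 6 lower and PFOA 2, both of which Wy14,643 also called, where 0.443% and 0.451% of all named genes were called lower. Their medians were -1.27 and -0.92 and their median difference was 0.01. The counts were 4 and 5 without Wy14,643 replicate 3, and 8 and 7 with the spread of 39 arrays. Over all named genes, the counts of falls in those settings were 32 and 126 of 12635, and 457 and 321 of 11583.

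**Figure D4:**
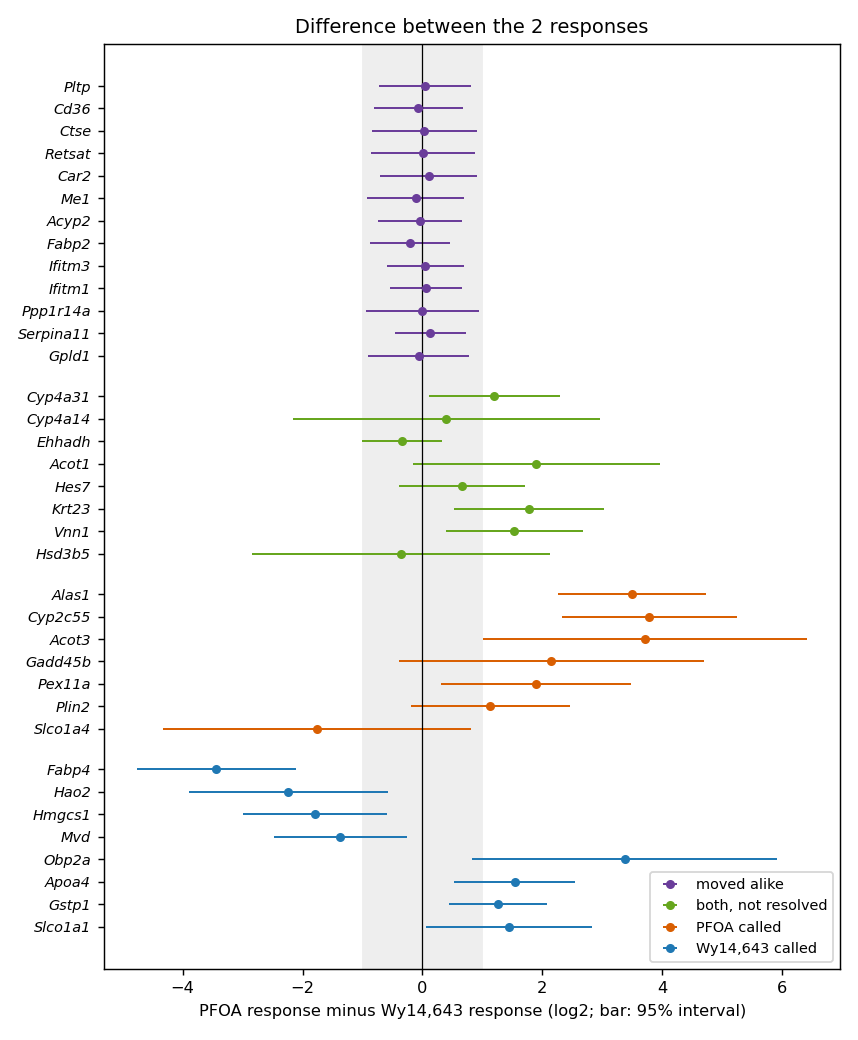
Difference between the responses (PFOA minus Wy14,643, log2) for named genes of each class, with 95% intervals. Grey marks the margin of 1 log2 unit, which holds the intervals of the genes moved alike, while those of genes called for 1 compound reach well past it.

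Each compound called members of the fat oxidation lists, though most members were not called. Over all named genes, PFOA called 1.62% higher and 0.451% lower and Wy14,643 1.15% higher and 0.443% lower. Of 25 measured peroxisomal β-oxidation genes, PFOA called 10 higher and Wy14,643 7, with 6 in common, and the median responses were 0.85 and 0.92. Abcd3, a peroxisomal fatty acid transporter, rose by 1.99 and 1.68 (a Wy14,643 call lost without replicate 3, adjusted p = 0.083), and Acot8 by 1.93 and 1.37. Of the genes called for PFOA and not Wy14,643, Eci2 had 1.65 and 0.80, Acaa1a 1.55 and 0.92, Crat 2.98 and 2.36 and Slc27a2 0.85 and 0.63, each with a same-sign Wy14,643 value that missed the threshold. Of 26 genes of ω-oxidation, thioesterases and fatty acid handling, PFOA called 11 higher and 1 lower and Wy14,643 10 higher, with 9 in common. Of 17 mitochondrial β-oxidation and ketogenesis genes, PFOA called 7 and Wy14,643 6, all 6 in common, with medians of 0.85 and 0.44. Without Wy14,643 replicate 3 the PFOA and Wy14,643 counts of rises were 10 and 5 for the peroxisomal list, 13 and 10 for ω-oxidation and 9 and 4 for the mitochondrial list. Over all 12635 named genes these counts were 303 and 87.

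The same shares over all named genes apply to the lists that follow. Of 20 lipid droplet and triglyceride genes, PFOA called 6 higher and Wy14,643 1, with medians of 0.84 and 0.57. Of 28 NRF2 and glutathione genes, PFOA called 7 higher and Wy14,643 2 higher and 1 lower by limma (10 and 13 at an unadjusted p under 0.05). With the spread of 39 arrays PFOA called 8 of them higher and Wy14,643 5 higher and 3 lower. Of 22 complement genes, PFOA called 4 lower (C8b, C9, Cfb and Cfi) and Wy14,643 5 (C8b, C8a, C1ra, C6 and Cfb), with medians of -0.63 and -0.80, against medians of 0.0012 and -0.05 over all named genes. Without Wy14,643 replicate 3 PFOA called 8 complement genes lower and Wy14,643 3, C6 being no longer called (adjusted p = 0.096), and the lipid droplet medians were 0.84 and -0.02. Of 36 cell cycle and DNA replication genes, each compound called 3 higher and none lower, and 1 (Mad2l1) was called for both, with 6 and 2 called higher without Wy14,643 replicate 3. Cdc20, the activator of the anaphase-promoting complex, was named after its values were seen, as a gene on either side of the threshold. It was at 10.6, 11.5, 11.1 and 11.2 with PFOA against 8.34 to 8.99 with water, a rise of 2.47 ± 0.56 (SE; limma adjusted p = 0.044), and at 11.4, 13.8, 10.7 and 10.5 with Wy14,643 against 8.63 to 9.63 with methylcellulose, a response of 2.58 ± 0.60 (SE; limma adjusted p = 0.056). Neither compound's arrays overlapped its controls, and the difference was -0.11 with an interval from -1.87 to 1.65. Its sign turned under 4 of the settings that left out 1 array, with 0.62 without Wy14,643 replicate 2. None of 46 oxidative phosphorylation and none of 62 mitochondrial ribosomal genes was called by limma for either compound. At an unadjusted limma p under 0.05 PFOA had 8 and 14 and Wy14,643 8 and 5, against 1977 and 2202 of all 12635 named genes. With the spread of 39 arrays PFOA called 6 and 5 and Wy14,643 6 and 3.

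**Figure D5:**
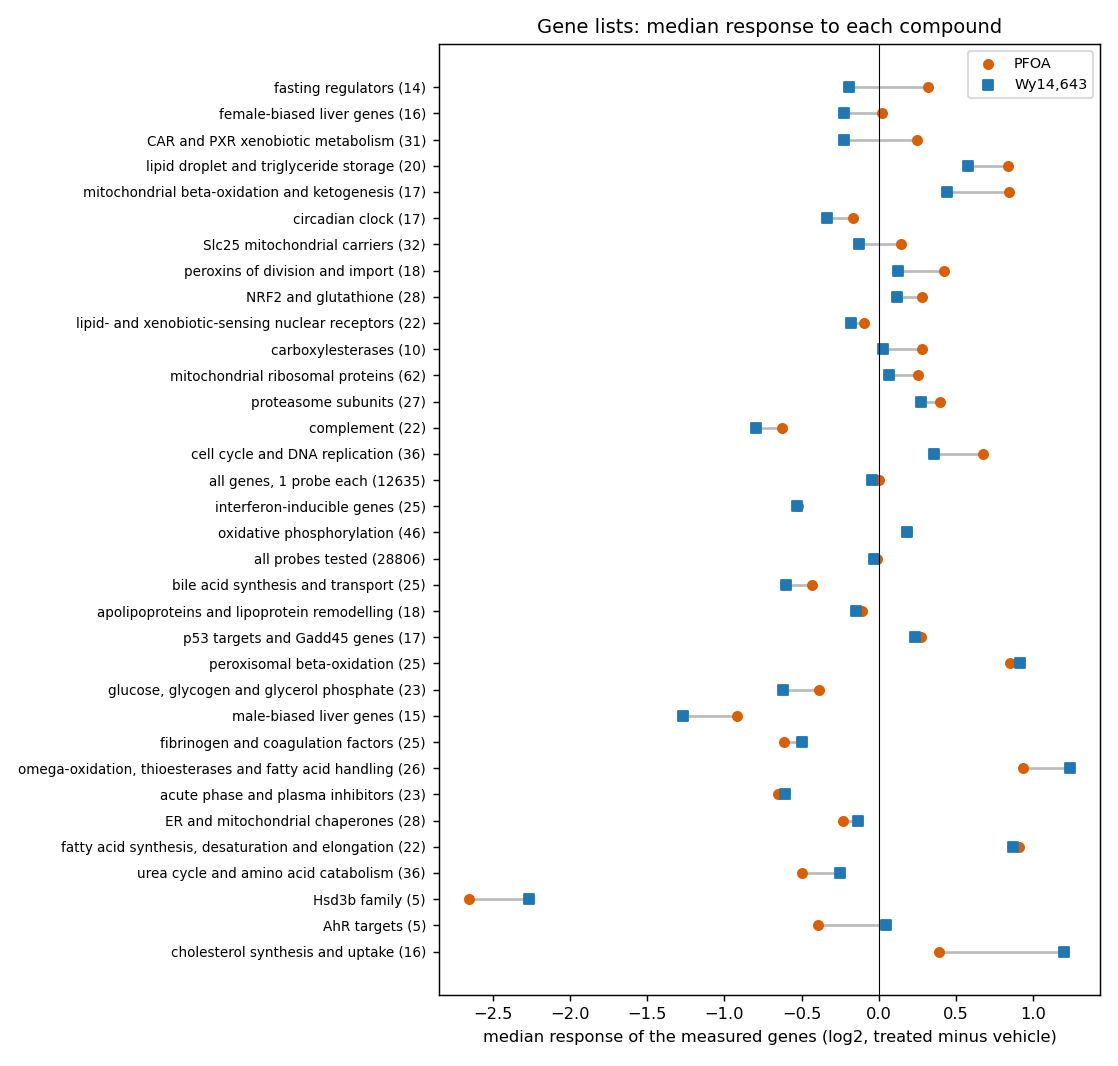
Median response to PFOA (circles) and to Wy14,643 (squares) over the measured genes of each list, in log2 units, with the number of genes in brackets and ordered by median difference. Cholesterol synthesis has the higher Wy14,643 median at the bottom, with 1.2 against 0.39, and the peroxisomal list has 0.85 and 0.92.

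PPARα-null mice, dosed in the same way, gave a readout that the classes did not use. In 16 arrays of null mice fitted apart, PFOA called 44 of 28282 probes (0.156%) and Wy14,643 called 0 (0%) by limma, with 2314 and 951 at an unadjusted p under 0.05. Of the 50 probes moved alike in wild-type mice, 3 were called for PFOA in the same direction in null mice (6%: Acaa1b, Acadl and Entpd5, of which Entpd5 lost its wild-type Wy14,643 call without replicate 3, adjusted p = 0.097). Of those called for both with size unresolved and measured in null mice, 2 of 101 were (1.98%: Cyp4a31 and Ifi27l2b), and of those called for PFOA and not Wy14,643, 9 of 276 (3.26%). Of those called for Wy14,643 and not PFOA, 1 of 200 was (0.5%: Mcm6, 2.54 with PFOA).

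With PFOA in null mice, Cyp2c55 rose by 6.79 (adjusted p = 3.71e-08), and Ces1g, a carboxylesterase, rose by 2.28. Ephx1, the microsomal epoxide hydrolase, rose by 0.87 and Gstm4, a glutathione transferase, by 1.31. Cyp2b10, which was not called in wild-type mice, rose by 4.60 with PFOA in null mice (adjusted p = 0.00026) and had -0.13 with Wy14,643. Cd36 had 0.09 with PFOA and -0.11 with Wy14,643, and Alas1 0.93 and 0.43, none of them called. The difference between wild-type and null mice was not tested here. PFOA called 12, 17, 13 and 14 probes in null mice without water replicates 1, 2, 3 and 4 of those mice, and 23 and 12 without their PFOA replicates 1 and 2.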

How the data were processed

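Liver RNA was made into digoxigenin-labelled cRNA with 1 round of T7 amplification and hybridised to arrays of the Applied Biosystems mouse survey design, as the labels and the design text state. The authors deposited 1 value per probe and array on a scale taken here as log2 (4.85 to 21.5, median 9.14). The base, the background correction and the normalisation are not given in the sources used, and the deposited values have the same distribution on each array apart from missing values. Of 33012 probes, 14411 map to 1 gene, 247 to several and 18354 to none in the platform annotation. Probes with a missing value on any of the 15 arrays (4206) were left out.

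A model with 1 mean per group was fitted to the 15 arrays with limma 3.58.1 in R 4.3.3 (lmFit, eBayes, 11 residual and 2.70 prior degrees of freedom, Benjamini-Hochberg adjustment over all probes). The 15 arrays were used so that only the groups compared shared the spread. Replicate 3 of the wild-type 1 mg/kg PFOA group was judged to go against its label, for which no values are given here. In a fit of all 39 the SE of the difference was larger for Cd36 (0.57 against 0.35) and smaller for Acot1 (0.75 against 0.96). With that array alone left out, the fit of 38 arrays called 3 differences, against 0 in the fit of the 15. Null mice had a fit of their own. Intervals are at 95%. The fit was tested on simulated data. Named genes were those of an effect-size rule, up to 4 of each gene list and a fixed set. No gene met the rules for 1 compound alone, so genes with the smallest unadjusted p of the difference and the shared genes of unresolved size were added after their values were seen. The members and lists were chosen with earlier results of these data known, and no list was given a set test. The main fit did not pair the arrays by replicate number. Deviations from the group mean correlated from -0.24 to 0.27 over 21 same-numbered pairs, most above 0 and 7 above 0.1. Replicates 1 and 4 of PFOA and water and replicate 1 of methylcellulose lay in the smaller array set. Alternatives covered the arrays fitted, blocks, scaling, the prior, filters, thresholds and each array left out.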

Additional observations from a re-analysis of the deposited data

Results flagged for a closer look

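In 192 groups of 4 arrays, 64 genes in 3 groups each, 18 held an array further from the others than Dixon's 95% criterion allows, and chance gives about 1 in 20. Values are log2 signals, each followed by the nearest of the other arrays. Wy14,643 replicate 3 held Ppp1r14a at 11.88, below 13.09, Gpld1 at 14.25, below 15.49, Fads2 at 16.68, above 16.18, Cyp4a31 at 17.79, above 16.81, Gadd45b at 15.37, above 11.86, Slco1a4 at 10.44, below 14.71 and Slco1a1 at 13.21, below 15.01. PFOA replicate 2 held Ppp1r14a at 13.47, above 12.92, Serpina11 at 16.51, above 16.15 and Gstp1 at 20.17, above 19.46. Water replicate 4 held Acaa1b at 19.76, above 19.59 and Vnn1 at 10.81, below 10.85. In Wy14,643 replicate 1 this was Ephx2 at 18.04, below 18.48. In PFOA replicate 4 this was Plin2 at 17.82, above 17.23. In water replicate 2 this was Fabp4 at 12.28, below 12.77. In water replicate 3 this was Mvd at 13.89, above 12.81. In water replicate 1 this was Cyp2b10 at 10.28, below 12.78. In Wy14,643 replicate 4 this was Ppara at 16.07, below 16.71.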

How the results depend on the processing

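With the spread taken from 39 arrays, 1473 probes were called for PFOA, 1542 for Wy14,643, 526 for both in the same direction, 293 as moved alike, 3 for the difference, 1 for PFOA alone and 1 for Wy14,643 alone, and with 38 arrays 1572, 1665, 580, 337, 3, 1 and 2. An intensity trend with a robust prior gave 917, 836, 363 and 194, with 1 difference and 1 opposite call, and probes above the median signal gave 910, 974, 378 and 200 with 1 opposite call. The silent-gene index as a covariate gave 269, 210, 98 and 16, and an adjusted p under 0.01 gave 177, 99, 65 and 24. The larger array set alone gave 112, 45, 20 and 1, with 10 differences, 2 opposite calls, 7 probes for PFOA alone and 1 for Wy14,643 alone. A margin of 0.5 left 0 probes moved alike. Leaving out 1 array gave 243 to 697 for PFOA, 128 to 641 for Wy14,643, 79 to 204 for both, 16 to 65 alike, 0 to 3 differences, 0 to 2 opposite, 0 to 3 for PFOA alone and 0 to 1 for Wy14,643 alone. The replicate block gave 454, 326, 165 and 60 and no difference, and over 21 same-numbered pairs the deviations correlated from -0.24 to 0.27. In null mice PFOA called 76 probes with 39 arrays, 84 with 38, 21 with the replicate block, 11 at 0.01, 95 with the trend and 12 to 45 without 1 array. Of these, 29, 7, 3 and 35 (38 arrays, block, 0.01, trend) and 3 to 15 (1 array left out) were also called in wild-type mice in the same direction, against 14. Cause was not tested for any of these. Among 38 named genes called for both compounds, the uncalled difference, at most 0.52 in size in these, changed sign for 20 when 1 array was left out. Among the other 26, and among the called responses of 59 genes, 1 sign turned, that of the difference of Cdc20, which was not called (-0.11) and ran from -0.48 to 0.62 without 1 array, above 0 under 4 of those settings. Called responses fell below the threshold in 100 of 1063 gene and setting combinations and in 160 of 1455 with 1 array left out. With 3 or 4 animals a group, the interval reached 0.89 to either side of the difference at the median of the called probes and 1.18 over all probes. Differences as large as 3.78 (Cyp2c55) missed the adjusted threshold in the fit of the 15 arrays.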
